A study of Mus musculus with 4 samples.

Results

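The genes described here are 9 haematopoietic growth factor receptor genes, CSF3R, CSF2RA, CSF2RB, IL3RA, CSF1R, EPOR, IL2RG, IL7R and IL6R, among the 58735 gene rows of the count table. They were taken by gene symbol, and each symbol matched 1 row. The list was drawn up with the difference between the study's 2 groups already known, so the members' own values in that comparison are a description and carry no test. The study sequenced RNA from Jurkat T cells, a human T cell leukaemia line. The first group, called wild-type, holds 2 libraries of unedited cells, and the second holds 2 libraries whose MATR3 gene was labelled as knocked out by means of CRISPR-Cas9. The gene's product, matrin 3, sits in the nuclear matrix and binds RNA and DNA. Both groups were grown alike in medium with fetal bovine serum. The labels do not say whether the knockout libraries came from 1 clone or whether libraries came from separate cultures, so the tests reflect no more than the variation among these libraries, possibly technical. The 2 libraries of a group are called a pair below, with no link between libraries of different groups.

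Haematopoietic growth factor receptors carry outside signals for survival, growth and lineage choice into blood cells. Most belong to the type I cytokine receptor family. They have no kinase of their own and signal through JAK kinases bound to their tails, which phosphorylate STAT factors. CSF1R differs, being a receptor tyrosine kinase of the family that also holds KIT and FLT3. Receptors for G-CSF, GM-CSF, M-CSF and IL-3 are typical of granulocytes, monocytes and their precursors, the EPO receptor of red cell precursors, and the IL-7 receptor and common gamma chain of lymphocytes.

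Total counts per library ranged from 15008554 to 17477643. The targeted gene could not serve as a check of the labels. Its tested row held 19 and 9 reads in the wild-type pair against 42 and 61 in the knockout-labelled pair, and a second row that overlaps it held 5, 1, 2 and 2, so all directions below are those of the knockout-labelled libraries. All 17 T cell markers had reads in both groups, with a summed level of 3549 to 3796 CPM (counts scaled to a common library size) in the wild-type pair against 1534 to 1567 CPM in the knockout-labelled pair. Of these, 15 fell and 0 rose by the edgeR test at an adjusted p under 0.05, where 32.3% of all genes tested passed as lower. Of 19 myeloid markers, 15 of the 16 tested rose and 0 fell, where 33.7% of all genes tested passed as higher. For ELANE, CD33, ITGAX, FCGR1A, ITGAM, LYZ, FCER1G and S100A9, neither wild-type library had enough reads to pass the expression filter. For PRTN3, AZU1 and TYROBP, only 1 of the 2 did. All these were tested because of the knockout-labelled libraries, where they were high, so nothing is read from the share that rose. The markers' summed level was 181.5 to 184.0 CPM in the wild-type pair against 5908 to 6028 CPM in the knockout-labelled pair. Most of that rise was MPO, at 8.50 and 9.36 CPM against 4972 and 4867 CPM. Others stayed low, with LYZ at 2.58 CPM in the knockout-labelled pair and CD14 at 8 and 5 reads against 6 and 4. ELANE, CD68 and S100A8 had 0 reads in wild-type, and S100A8 had 0 in all 4 libraries. B cell markers summed to 16.0 to 17.8 CPM in the wild-type pair against 9.78 to 10.8 CPM in the knockout-labelled pair, with CD22, MS4A1 and IGHM at 0 reads throughout. Of the 10 B cell markers, 4 were tested, of which PAX5 (0 and 0 reads against 53 and 32) and BLNK rose and CD79A (14.7 ± 1.99 against 5.70 ± 0.0487 CPM, SD, n = 2 each) and SPIB fell. PAX5 and BLNK passed the expression filter only through the knockout-labelled libraries, and SPIB only through the wild-type libraries. Erythroid and megakaryocyte markers summed to 2.76 to 3.27 CPM and 4.23 to 4.99 CPM, with HBB, HBG1, GP9 and PF4 among those at 0 reads. The part of these marker shifts in the receptor values was not tested.

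The receptors of myeloid growth factors held at most 14 reads in a wild-type library and 13 to 329 in a knockout-labelled library, whereas the lymphoid receptor chains IL2RG and IL7R were lower in the latter. EPOR differed by a ratio of 1.19. The CPM of the groups did not overlap for any of the 9 members, with 7 higher and 2 lower in the knockout-labelled libraries. Among all 15294 genes tested, 41.6% were higher without overlap and 40.4% were lower without overlap, and because the members were chosen on this comparison nothing is read from their count. By the edgeR test at an adjusted p under 0.05, 66.0% of all genes tested passed, 33.7% as higher and 32.3% as lower. All 9 passed the expression filter. For 6 of them only the knockout-labelled libraries brought both replicates past it, for IL7R only the wild-type libraries did, and EPOR and IL2RG passed in both groups. In bulk RNA, fewer cells that carry a transcript and less of it per cell cannot be told apart.

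**Figure D1:**
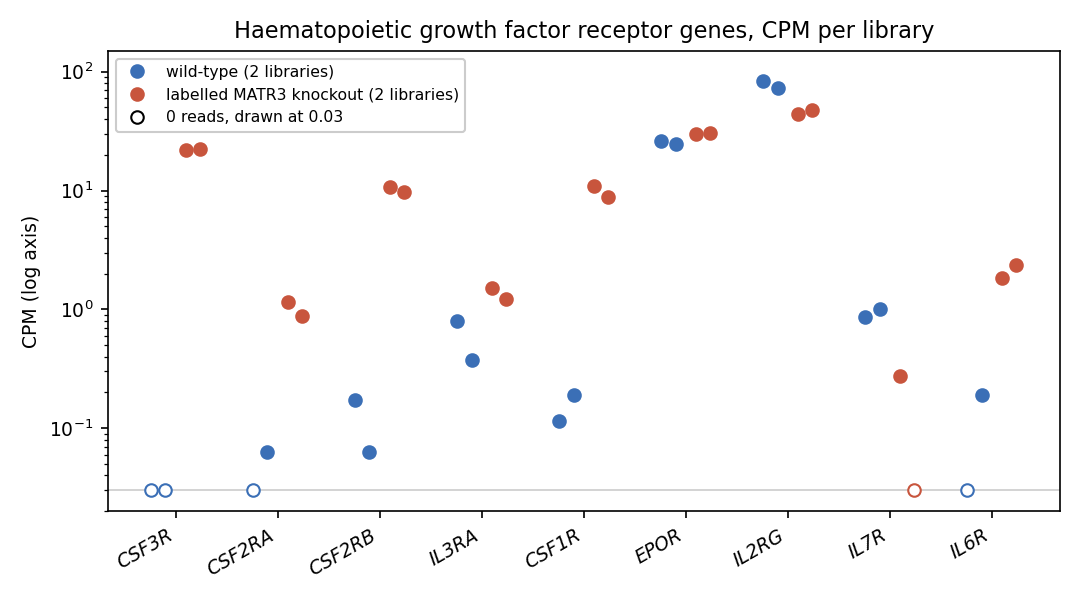
CPM (log axis) of each receptor gene in each library, with blue points for the 2 wild-type libraries and red points for the 2 labelled MATR3 knockout; open points are 0 reads, drawn at 0.03. CSF3R, CSF2RB and CSF1R go from at most 0.188 CPM to at least 8.83 CPM, EPOR stays between 24.8 and 30.6 CPM, and IL2RG and IL7R are lower in red.

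CSF3R, the receptor for granulocyte colony-stimulating factor (G-CSF), drives the making of neutrophils. Its row (ENSG00000119535, chromosome 1, 36466043 to 36483278, minus strand, genome build not stated) held 0 reads in both wild-type libraries and 322 and 329 reads in the knockout-labelled libraries. The latter correspond to 22.1 ± 0.153 CPM (SD, n = 2). Both knockout-labelled libraries were thus close to each other, and neither wild-type library had a single read. Taking 3 counts summed over both wild-type libraries as the floor, which is 0.0900 CPM and covers counting error only, the level was at least 245-fold higher. CSF3R took 17.95% and 17.96% of all reads on the 9 receptor genes in the knockout-labelled libraries.

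CSF2RB encodes the common beta chain, the signalling subunit shared by the receptors for GM-CSF, IL-3 and IL-5. It held 3 and 1 reads in the wild-type pair against 157 and 144 in the knockout-labelled pair (ENSG00000100368, chromosome 22, 36913628 to 36940449, plus strand). The levels were 0.118 ± 0.0774 and 10.2 ± 0.708 CPM (SD, n = 2 each). The ratio of the groups was 85.1, with a 95% exact conditional interval of 32.9 to 314 for counting error alone. The wide interval reflects the 4 wild-type reads.

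Of the members, CSF2RA and IL3RA encode ligand-binding alpha chains that pair with the common beta chain, and in the knockout-labelled libraries both stood below CSF2RB. CSF2RA, the alpha chain for GM-CSF (ENSG00000198223, chromosome X, 1268800 to 1310381, plus strand), held 0 and 1 reads in the wild-type pair against 17 and 13 in the knockout-labelled pair, a ratio of 33.9 (95% exact interval 5.64 to 1384). IL3RA, the alpha chain for IL-3 (ENSG00000185291, chromosome X, 1336616 to 1382689, plus strand), held 14 and 6 reads in the wild-type pair against 22 and 18 in the knockout-labelled pair, or 0.590 ± 0.302 and 1.36 ± 0.203 CPM (SD, n = 2 each). IL3RA was the myeloid receptor gene with the most wild-type reads. Its ratio of 2.26 (95% exact interval 1.29 to 4.08, for counting error alone) was the smallest among the 5. That interval leaves out the spread between the wild-type libraries, at 0.804 and 0.377 CPM. The genes lie next to each other in a region that the X and Y chromosomes share. The table holds 1 row for each, on X, and 0 on Y, and how reads matching both copies were counted is not given, so their levels are uncertain.

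CSF1R, the receptor kinase for M-CSF and IL-34 that monocytes and macrophages depend on, held 2 and 3 reads in the wild-type pair against 160 and 131 in the knockout-labelled pair (ENSG00000182578, chromosome 5, 150053291 to 150113372, minus strand). The levels were 0.152 ± 0.0521 and 9.87 ± 1.47 CPM (SD, n = 2 each). Their ratio was 65.8 (95% exact interval 27.9 to 204). CSF1R and CSF2RB therefore stood at like levels in the knockout-labelled libraries, each below CSF3R.

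EPOR, the erythropoietin receptor, was the member whose groups lay closest together. It held 451 and 395 reads in the wild-type pair against 438 and 454 in the knockout-labelled pair (ENSG00000187266, chromosome 19, 11377205 to 11384342, minus strand). The levels were 25.3 ± 0.764 and 30.2 ± 0.517 CPM (SD, n = 2 each), a ratio of 1.19 (95% exact interval 1.08 to 1.31, for counting error alone). The fitted log2 fold change was 0.25 (SE 0.125). Both are descriptions and no test, because the members were chosen on this comparison. Its share of the reads on all 9 genes was 23.3% and 24.8% in the wild-type pair against 24.4% and 24.8% in the knockout-labelled pair. Of the 12 erythroid and megakaryocyte markers, 2 had enough reads to be tested and 0 passed. These were KLF1 and ITGA2B, with log2 fold changes of 0.77 and 0.46. Among those not tested, GATA1 held 0 and 0 reads in the wild-type pair against 9 and 12, and HBA1 held 7 and 7 against 4 and 1.

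IL2RG encodes the common gamma chain, shared by the receptors for IL-2, IL-4, IL-7, IL-9, IL-15 and IL-21. It was the most abundant member in every library, with 1449 and 1166 reads in the wild-type pair against 647 and 708 in the knockout-labelled pair (ENSG00000147168, chromosome X, 71107404 to 71112108, minus strand). The levels were 78.2 ± 7.03 and 45.9 ± 2.54 CPM (SD, n = 2 each). Both knockout-labelled libraries lay below both wild-type libraries, with a fitted log2 fold change of -0.77 (SE 0.0889). The gene supplied 74.9% and 73.3% of the reads on the 9 members in the wild-type pair against 36.1% and 38.6% in the knockout-labelled pair.

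IL7R, the alpha chain of the IL-7 receptor, which also serves the TSLP receptor, held few reads even in wild-type. The counts were 15 and 16 in the wild-type pair against 4 and 0 in the knockout-labelled pair (ENSG00000168685, chromosome 5, 35852695 to 35879603, plus strand). The level was 0.933 ± 0.102 CPM in the wild-type pair against 0.136 ± 0.193 CPM in the knockout-labelled pair (SD, n = 2 each). The wild-type level was 6.85 times the other (95% exact interval 2.42 to 26.7), and replicate 1 held all 4 reads of the knockout-labelled libraries.

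IL6R, the ligand-binding chain for IL-6, is found on hepatocytes, some myeloid cells and T cells. It held 0 and 3 reads in the wild-type pair against 27 and 35 in the knockout-labelled pair (ENSG00000160712, chromosome 1, 154405193 to 154469450, plus strand). The level in the knockout-labelled libraries was 2.10 ± 0.366 CPM (SD, n = 2), and the ratio of the groups was 23.4 (95% exact interval 7.63 to 116). IL6R was higher in both knockout-labelled libraries than in either wild-type library, but stood below CSF1R there.

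**Figure D2:**
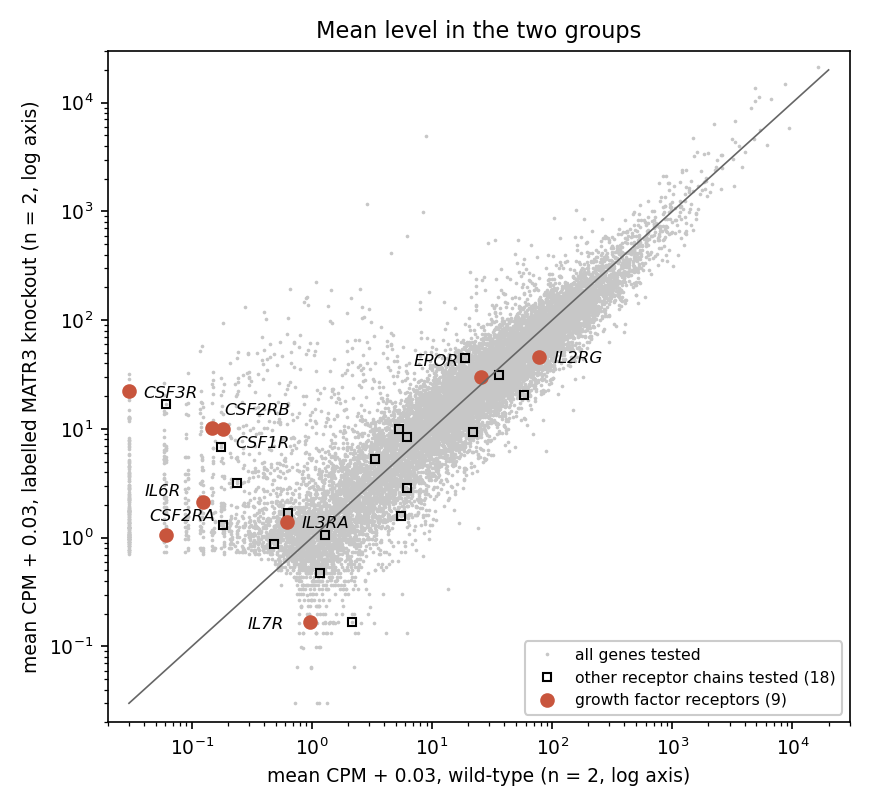
Mean CPM plus 0.03 in wild-type (x) against the libraries labelled MATR3 knockout (y), both on log axes, n = 2 each; grey points are all 15294 genes tested, red points the 9 growth factor receptors, open squares the 18 other receptor chains tested, and the line marks equal levels. CSF3R sits on the left edge with 0 wild-type reads, EPOR is close to the line, and IL2RG and IL7R lie below it.

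Compared per length, the order of the receptors differed between the groups. RPKM here is CPM per kilobase of the gene length in the table. In wild-type, IL2RG (28.3 ± 2.55 RPKM, SD, n = 2) stood above EPOR (8.23 ± 0.248 RPKM), and both stood far above IL3RA (0.345 ± 0.176 RPKM) and IL7R (0.154 ± 0.0168 RPKM). These 4 were separated from one another in both replicates. The other members, CSF1R, CSF2RB, IL6R, CSF2RA and CSF3R, lay at 0.0294 RPKM or less, and no neighbours among them in the order were separated beyond their spread. In the knockout-labelled libraries, IL2RG (16.6 ± 0.922 RPKM) and EPOR (9.82 ± 0.168 RPKM) again came first. CSF3R (2.62 ± 0.0181 RPKM) came after them, and CSF2RB (2.04 ± 0.142 RPKM) and CSF1R (1.92 ± 0.286 RPKM) followed with overlapping replicates. IL3RA (0.794 ± 0.119 RPKM) came next, then IL6R (0.326 ± 0.0568 RPKM) and CSF2RA (0.266 ± 0.0523 RPKM), whose replicates overlapped. IL7R was last at 0.0225 RPKM. Among 19951 protein-coding genes, CSF3R in the knockout-labelled libraries stood at the 59.7th percentile by RPKM, while IL2RG stood at the 91.3rd percentile in the wild-type pair against the 86.8th in the knockout-labelled pair.

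Other receptor chains, only some of which pair with a member, changed in both directions. Among 28 other type I receptor chains and class III receptor kinases, none of which is a member, 18 were tested. Of these, 9 rose and 6 fell in the knockout-labelled libraries (adjusted p under 0.05, edgeR quasi-likelihood test), which is 83.3% against 66.0% of all genes tested. The median log2 fold change was 0.55, against 0.02 for all genes. For IL23R, IL12RB2, IL13RA1, PDGFRB, LEPR and LIFR, only the knockout-labelled libraries brought both replicates past the expression filter. For IL12RB1 and IL31RA only the wild-type libraries did. The shares thus include rows that were tested because they were high in 1 group. The list was chosen with earlier results of these data known, and nothing particular to it is read from these shares.

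Partners of the common gamma chain mostly had reads in both groups. IL9R, the alpha chain for IL-9, fell from 60.6 and 55.9 CPM in wild-type to 22.0 and 19.2 CPM (log2 fold change -1.50, SE 0.111, edgeR adjusted p = 1.43e-20). IL9R has near-identical copies in the genome, so its reads may be split among them. IL2RB, the beta chain for IL-2 and IL-15, fell from 21.5 and 22.0 CPM to 9.89 and 8.63 CPM (log2 fold change -1.23, SE 0.162, edgeR adjusted p = 3.03e-10). These chains and IL2RG were thus all lower in both knockout-labelled libraries. IL4R, the alpha chain for IL-4, did not pass, at 36.1 ± 2.16 and 31.4 ± 4.48 CPM (SD, n = 2 each), and neither did IL21R, at 1.24 ± 0.515 and 1.02 ± 0.296 CPM. Without wild-type replicate 2, IL4R passed as lower (log2 fold change -0.28, edgeR adjusted p = 0.0381). IL15RA, the alpha chain for IL-15, passed narrowly as higher (log2 fold change 0.46, edgeR adjusted p = 0.0446), a call lost without wild-type replicate 1 (adjusted p = 0.159) and without replicate 1 (0.345) or 2 (0.0746) of the knockout-labelled libraries. With the replicate number as a block its adjusted p was 0.0504. IL2RA, the alpha chain induced on activated T cells, had 0 reads in all 4 libraries. CRLF2, which pairs with IL7R in the TSLP receptor and lies in the same shared X and Y region as CSF2RA, held 7 and 1 reads in the wild-type pair against 5 and 8 in the knockout-labelled pair and was not tested.

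On the common beta and IL-6 sides, the partners were few in reads. IL5RA, the alpha chain for IL-5, held 4 and 2 reads in the wild-type pair against 5 and 4 in the knockout-labelled pair, too few to test. IL6ST, the shared signalling chain of the IL-6 family, was at 3.34 ± 0.551 and 5.26 ± 0.187 CPM (SD, n = 2 each) and passed as higher (log2 fold change 0.65, SE 0.251, edgeR adjusted p = 0.0195). That call was lost without wild-type replicate 2 (adjusted p = 0.118) and without replicate 1 (0.126) or 2 (0.0783) of the knockout-labelled libraries. Per length, IL6ST stood at 0.566 RPKM and IL6R at 0.326 RPKM in the knockout-labelled libraries.

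**Figure D3:**
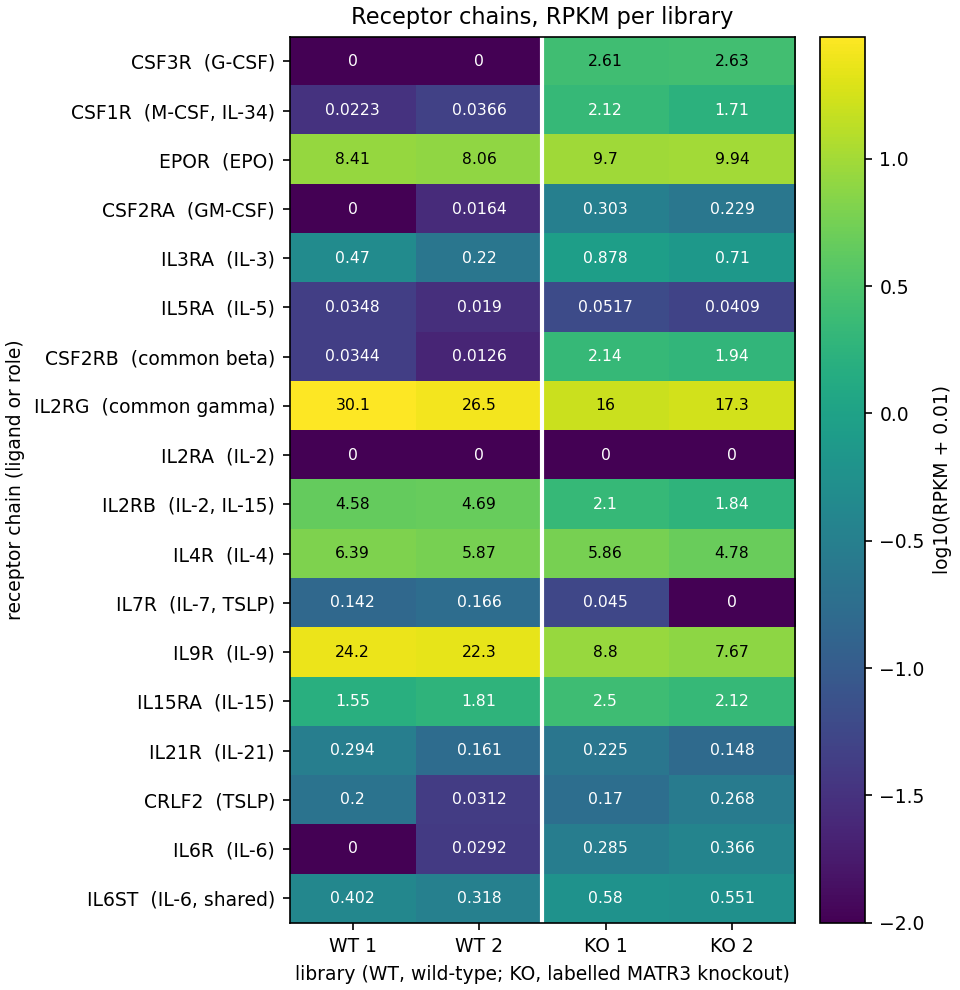
RPKM of each receptor chain in each library, with rows for the members and the chains they pair with, labelled by ligand or role; the printed value is the RPKM and the colour its log10 after adding 0.01. IL2RG, IL9R and EPOR are the most abundant rows in wild-type, CSF3R, CSF2RB and CSF1R change from at most 0.0366 to at least 1.71 RPKM, and IL2RA is 0 in every library.

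Of the class III receptor kinases related to CSF1R, KIT, the stem cell factor receptor, fell from 3.67 and 7.22 CPM in wild-type to 1.77 and 1.35 CPM (log2 fold change -1.79, SE 0.309, edgeR adjusted p = 5.17e-07). PDGFRB, whose gene lies 465 bases from that of CSF1R, held 2 and 3 reads in the wild-type pair against 23 and 15 in the knockout-labelled pair (log2 fold change 3.04, SE 0.672, edgeR adjusted p = 5.69e-05). FLT3 held 4, 0, 0 and 5 reads and was not tested, and PDGFRA had 0 reads throughout. The members of this kinase family therefore did not move as one.

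The largest changes among the remaining chains were in receptors of the IL-12 family. IL23R, the IL-23 receptor chain, held 0 and 1 reads in the wild-type pair against 250 and 252 in the knockout-labelled pair, a ratio of 568 (95% exact interval 101 to 22462; edgeR adjusted p = 2.37e-30). IL12RB2, a signalling chain for IL-12, held 5 and 0 reads against 107 and 94 (log2 fold change 5.44, SE 0.454, edgeR adjusted p = 5.33e-18). All wild-type IL12RB2 reads were in replicate 1, and fitted values without a wild-type library ranged from 4.52 to 9.70 for IL12RB2 and from 7.92 to 11.05 for IL23R. IL12RB1, the chain that pairs with each of them, fell from 45 and 27 reads to 3 and 1 (log2 fold change -3.91, SE 0.630, edgeR adjusted p = 1.01e-07). Its value was -4.84 without knockout-labelled replicate 1 and -3.34 without the other. The partners thus moved in opposite directions. IL23R, IL12RB2 and IL12RB1 were named for the size of their change. Each passed the expression filter only through the group in which it was high, so their adjusted p-values are descriptions. IL13RA1, which binds IL-13, rose from 0.209 ± 0.0291 to 3.12 ± 0.166 CPM (SD, n = 2 each). LEPR, the leptin receptor, passed as higher (log2 fold change 1.45, edgeR adjusted p = 0.00660), a call lost without wild-type replicate 1 (adjusted p = 0.0657) or knockout-labelled replicate 2 (0.149).

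Most of the members' own ligands had few or no reads, with CSF1 and TSLP as exceptions. CSF3, IL2, IL6, IL9 and IL21 had 0 reads in all 4 libraries, which allows up to 0.0900 CPM in the wild-type pair against 0.102 CPM in the knockout-labelled pair by counting error. CSF2, IL3, IL5, IL7, IL34, EPO and IL4 held at most 3 reads in any library. IL15 held 8 and 13 reads in the wild-type pair against 7 and 4 in the knockout-labelled pair, and was not tested. CSF1, the M-CSF gene, was the ligand of a member with the most reads, at 16.3 ± 0.784 CPM in the wild-type pair against 13.1 ± 0.636 CPM in the knockout-labelled pair (SD, n = 2 each), and did not pass (edgeR adjusted p = 0.0767). Of 22 ligand genes listed, 5 were tested, 2 rose and 0 fell (40.0%, against 66.0% of all genes tested). OSM, oncostatin M, a cytokine of the IL-6 family, rose from 2.58 and 1.76 CPM to 16.8 and 21.3 CPM (log2 fold change 3.12, SE 0.217, edgeR adjusted p = 5.61e-22). TSLP, a ligand of the IL7R chain, held 42 and 62 reads against 74 and 80 and passed with a log2 fold change of 0.74 (edgeR adjusted p = 0.0104), a call lost without wild-type replicate 1 (adjusted p = 0.159) or knockout-labelled replicate 2 (0.0872), and the count of ligands that passed was then 1.

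Genes that carry the receptors' signal inside the cell changed in both directions. Of 31 listed, 30 were tested, 21 rose and 6 fell (90%, against 66.0% of all genes tested), with a median log2 fold change of 0.64, the same with LYN at its lower bound. This list and that of ligands were chosen with earlier results of these data known, and nothing is read from their shares. Among the JAK kinases, JAK3, which binds the common gamma chain, fell from 38.5 and 37.7 CPM to 27.8 and 23.9 CPM (log2 fold change -0.56, SE 0.119, edgeR adjusted p = 2.76e-05). JAK2, which binds EPOR and the common beta chain, went from 4.18 ± 1.37 to 6.51 ± 0.234 CPM (SD, n = 2 each) and passed (log2 fold change 0.65, edgeR adjusted p = 0.0128). The JAK2 call was lost without wild-type replicate 1 (adjusted p = 0.205) and without replicate 1 (0.0589) or 2 (0.0983) of the knockout-labelled libraries. JAK1 and TYK2 did not pass, at log2 fold changes of -0.06 and -0.02. Without wild-type replicate 1, JAK1 passed as lower (log2 fold change -0.22, edgeR adjusted p = 0.0263), and without wild-type replicate 2 its value was 0.11. TYK2 turned to 0.014 without wild-type replicate 1 and to 0.021 with upper-quartile scaling. STAT5A, a main STAT of these receptors, fell from 87.0 and 81.3 CPM to 22.0 and 21.1 CPM (log2 fold change -1.97, SE 0.0986, edgeR adjusted p = 4.34e-30). Its close relative STAT5B fell by 0.54 on the log2 scale (SE 0.0811) and STAT3, used by the G-CSF and IL-6 receptors, by 0.64 (SE 0.0733). These 3 STAT genes and JAK3 were among the 6 listed signalling genes that fell, against 21 that rose.

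The largest rises among the signalling genes included SRC family kinases. LYN, a SRC family kinase linked to the G-CSF and common beta chain receptors, had 0 reads in the wild-type pair against 209 and 162 in the knockout-labelled pair, at least 140-fold higher against the floor of 3 counts. FGR, also of that family, rose from 3.61 ± 0.229 to 26.7 ± 0.882 CPM (SD, n = 2 each). IRS2, an adaptor of insulin and IL-4 signalling, rose from 7.89 ± 0.926 to 125.5 ± 5.60 CPM. INPP5D, the phosphatase SHIP1 that restrains cytokine signals in blood cells, rose from 27.5 ± 1.14 to 191.0 ± 0.527 CPM (SD, n = 2 each).

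Genes that respond to or restrain cytokine signals did not move as one. Of 22 tested, 8 rose and 10 fell (81.8%, against 66.0% of all genes tested), with a median log2 fold change of -0.064. This list was likewise chosen with earlier results known, and nothing is read from its share. MCL1, a survival gene of the BCL2 family, rose from 101 and 106 CPM to 864 and 874 CPM (log2 fold change 3.07, SE 0.0766, edgeR adjusted p = 6.80e-50). CCND2, cyclin D2, rose from 147 and 148 to 652 and 640 reads (log2 fold change 2.31, SE 0.140). Among the suppressors of cytokine signalling, SOCS1 fell from 55 and 45 to 14 and 19 reads (log2 fold change -1.41, SE 0.369, edgeR adjusted p = 0.000561), while SOCS4 and SOCS5 rose by log2 fold changes of 1.11 and 1.28. CISH, a feedback gene of STAT5, did not pass, at 8.35 ± 1.42 and 10.8 ± 1.86 CPM (SD, n = 2 each). CISH was named after its value was seen.

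**Figure D4:**
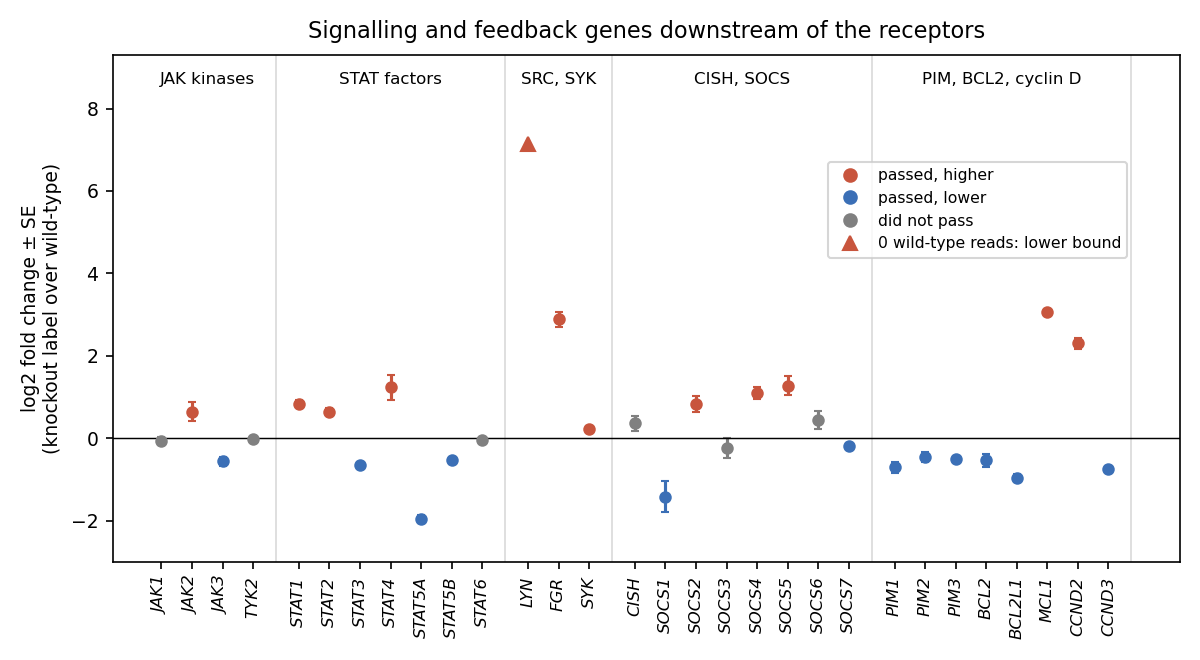
Log2 fold change with its SE (edgeR, libraries labelled MATR3 knockout over wild-type, n = 2 each) for JAK and STAT genes, SRC family kinases with SYK, CISH and SOCS genes, and PIM, BCL2 family and cyclin D genes; red passed as higher, blue as lower, grey did not pass. LYN, with 0 wild-type reads, is drawn as a triangle at its lower bound, STAT5A is the lowest point at -1.97, and JAK1 and TYK2 lie near 0.

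Some genes next to the members did not pass. MRPS15, 1606 bases from CSF3R, held 1465 and 1348 reads in the wild-type pair against 1413 and 1300 in the knockout-labelled pair and did not pass. SLC25A6, 3463 bases from IL3RA, and TST, the nearest tested gene above CSF2RB, did not pass either, nor did SWSAP1, 254 bases from EPOR.

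Other neighbours passed, in either direction. HMGXB3, 149 bases from CSF1R on the opposite strand, held 2731 and 2308 reads in the wild-type pair, where CSF1R held 2 and 3, and rose by a log2 fold change of 0.32. RPL7P1, a ribosomal protein pseudogene on the opposite strand within CSF1R, held 1138 and 1243 reads in the wild-type pair against 1231 and 1219 in the knockout-labelled pair and rose by a log2 fold change of 0.21 (edgeR adjusted p = 0.0206). NCF4, a subunit gene of the phagocyte oxidase 35613 bases from CSF2RB, rose from 23 and 25 to 1410 and 1362 reads (log2 fold change 6.02, SE 0.151, edgeR adjusted p = 7.90e-50). CSF2RBP1, the pseudogene next to CSF2RB on its other side, had 0 reads in all 4 libraries. ATP8B2 and UBE2Q1, the nearest tested genes on either side of IL6R, fell, with log2 fold changes of -1.17 and -0.39, whereas IL6R was higher. Beside IL7R, SPEF2 rose (log2 fold change 4.13, SE 0.539) and UGT3A2 fell (-2.26, SE 0.121). MED12, above IL2RG, rose by a log2 fold change of 0.43 and FOXO4, below it, passed at -0.32. The row AL590764.2, which overlaps IL2RG, and RGL3, which overlaps EPOR, held at most 2 reads in any library, and reads in the shared parts may have been counted for neither row.

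The protein-coding genes with profiles nearest to the extreme members were found by the Euclidean distance of log2(CPM + 0.1) over the 4 libraries, which fall into only 2 groups. For CSF3R they were DHRS9 (distance 0.023), THEM4 (0.109) and SKAP2 (0.256). DHRS9 had 0 reads in the wild-type pair against 320 and 334 in the knockout-labelled pair. For IL7R they were AL121758.1 (0.407), GAS2 (0.490) and CACNA1D (0.656), each with 13 to 18 reads per wild-type library and at most 7 in the others.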

How the data were processed

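RNA-seq libraries of Jurkat cells, 2 wild-type and 2 labelled MATR3 knockout, were analysed from 1 table of raw read counts per gene that the authors deposited without normalization. Per the submitters' processing notes, the tools included featureCounts 1.5.0-p3, HISAT2 2.0.5 and CASAVA 1.8, with no role stated. Neither a strand setting nor a genome build was stated there. Mouse is the labelled organism, but the rows carry human Ensembl identifiers and symbols, per the file headers and rows, and were used as human. No sequence is printed, because the reference used here was of mouse.

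Counts were tested with edgeR 4.0.16 under R 4.3.3 (limma 3.58.1): TMM scaling, filterByExpr at its defaults (minimum count 10, total 15), a two-sided quasi-likelihood test without covariates, and Benjamini-Hochberg adjustment over 15294 genes at 0.05. CPM are TMM-scaled. SE values are the absolute log2 fold change divided by the square root of F. Ratios are of summed counts over summed scaled library sizes, with 95% exact conditional intervals. These intervals cover counting error alone and leave out the spread between replicates. The spread between replicates exceeded sampling noise in both groups (chi-square per gene 5.83 and 2.21), so each library counted as 1 replicate. Alternatives were DESeq2 size factors, upper-quartile scaling, the DESeq2 1.42.0 Wald test, no filter, 1 CPM in at least 2 libraries, a replicate block, and leaving out each library.

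The members and lists were chosen with earlier results of these data known. The text names all members, their partner chains, ligands, related kinases, JAK1 to JAK3, TYK2, STAT3, STAT5A and STAT5B, up to 5 further genes of each list with the largest change among those that passed, genes next to members, and the 3 nearest profiles of the extreme members. Some genes that this rule takes are not reported here. Tested on simulated data (14175 genes, 200 changed), the comparison recovered 81% of 2-fold and 98% of 4-fold changes, with 3 false among 182 calls. The changed genes were drawn from those with a minimum of expected wild-type reads. The figures therefore do not cover genes with few wild-type reads, such as CSF2RB and IL23R. Few genes changed in the simulation, whereas 66.0% of genes passed in the data, a setting it did not cover.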

Additional observations from a re-analysis of the deposited data

How the results depend on the processing

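The fitted log2 fold change of each of the 9 members kept its direction under every alternative that gave a value. CSF2RA had too few reads for 2 of the 10 alternatives and IL7R for 1. Members with few reads in a group moved most when a library was left out: CSF2RA was at 3.87 without wild-type replicate 1 and at 6.998 without the other, IL3RA was at 1.84 without wild-type replicate 1 and at 0.73 without the other, IL6R reached 8.04 (without wild-type replicate 2), CSF2RB reached 7.19 (without wild-type replicate 1), and IL7R went to -6.92 (without knockout-labelled replicate 1, which held all its reads in that group). Such fitted values depend on the prior count and are no bounds. EPOR stayed between 0.21 and 0.31 and IL2RG between -0.87 and -0.65. The count of ligands that passed, 2, was 1 by the DESeq2 Wald test and ranged from 1 to 2 when each library was left out. Other list counts and the count of all genes stayed within 1.5 times. The direction turned for 3 genes that had not passed, and the cause was not tested. When each library was left out, IL21R ranged from -0.67 to 0.23, JAK1 from -0.22 to 0.11 and TYK2 from -0.041 to 0.014, and TYK2 was at 0.021 with upper-quartile scaling. By the DESeq2 Wald test the calls for IL15RA (adjusted p = 0.150), JAK2 (0.0898), IL6ST (0.109), TSLP (0.0829) and LEPR (0.0652) were lost. Same-numbered replicates did not deviate together (correlation 0.029 across 10611 genes), so the numbers were not taken as pairs. With a replicate block 10072 genes passed against 10088 without, and 14 other receptor chains against 15, the lost one being IL15RA.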

Other observations

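Receptors of other cytokine families were a list of 28 genes for interferons, IL-10, IL-1, IL-17 and TGF-beta family ligands, drawn up after the count table was seen. Of 23 tested, 13 rose and 3 fell, with a median log2 fold change of 0.55. The share that passed, 69.6%, was near the 66.0% of all genes tested, and nothing is read from these counts. IL1RL1, the IL-33 receptor of mast cells and some T cells, held 1 and 2 reads in the wild-type pair against 58 and 66 in the knockout-labelled pair (log2 fold change 5.43, SE 0.554, edgeR adjusted p = 3.58e-14). IL1RAP, the accessory chain it signals with, rose from 52 and 66 to 337 and 371 reads (log2 fold change 2.76, SE 0.189, edgeR adjusted p = 2.89e-22). IFNGR1, the ligand-binding chain for interferon gamma, rose from 12.8 ± 0.348 to 25.2 ± 0.113 CPM (SD, n = 2 each). IFNLR1, the interferon lambda receptor chain, fell by 0.89 on the log2 scale (SE 0.180, edgeR adjusted p = 1.33e-05). These examples were named after their values were seen, and IL1RL1 passed the expression filter only through the knockout-labelled libraries.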
